A study of Mus musculus with 12 samples.

Results

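Integrins are receptors that bind cells to the matrix around them and to other cells, and 10 integrin genes were described here in microglia, the macrophages of the brain, in primary mouse culture. They are Itgam, Itgal and Itgb2, which encode chains of the leukocyte integrins, Itga4, Itga5, Itga6 and Itgb1, which encode chains of matrix receptors, and Itgav, Itgb3 and Itgb5, which encode chains of vitronectin receptors. The genes were listed by symbol with earlier results of these data known; no cutoff on measured values was part of the rule. They were found in the count table by their Ensembl identifiers. All 10 of the 10 genes, of 52636 identifiers in the table, had enough counts to be tested.

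Primary microglia came from brains of wild-type C57BL/6 pups aged 1 to 2 days. They were shaken off mixed glial cultures after 10 to 13 days and plated in wells of 50000 cells. CSF1, a survival factor of microglia, was added to every well of all groups (2.5 ng). The study asked how exogenous neurofilament light chain (NfL), a protein of the axon skeleton, acts on microglia, and the cells received vehicle, 5 µg of full-length NfL or 5 µg of coiled-coil NfL for 24 h. Each of the 3 groups had 4 libraries, and the labels put each replicate number in a batch of its own, so the 4 batches each held 3 libraries, 1 per group. Nothing in the labels says that the batches were separate cultures or litters; p-values here thus cover the spread between libraries, which may be technical. The cells are a culture model of newborn microglia.

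An integrin is a pair of 1 alpha and 1 beta chain, each a membrane protein with a large outer part and a short tail inside the cell. The alpha chain largely sets which ligand is bound, and talin and kindlin, which bind the beta tail, switch the receptor to its high-affinity state. Itgam (CD11b) and Itgal (CD11a) both pair with Itgb2 (CD18), and the first pair, complement receptor 3, is a standard surface marker of microglia that takes up particles coated with complement. The pair of Itgal and Itgb2 is LFA-1, a receptor for ICAM molecules on other cells.

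The 250 bases before the annotated start were read from RefSeq (GRCm38.p6) for the members with an entry, which were 6 of the 10 (Itgam, Itga4, Itga5, Itgav, Itgb1 and Itgb5). Of these, Itga5, which rose with full-length NfL, and Itgav and Itgb5, which fell, are printed as the promoters of an alpha and beta chain that pair with each other and moved together, beside one that moved the other way. Capitals mark each match, on either strand, to GAGGAA, the core bound by the myeloid factor PU.1, or to GGGCGG, the GC box bound by Sp1-type factors; no match to one overlapped a match to the other.
Itga5 (chr15:103366792-103367041, minus strand): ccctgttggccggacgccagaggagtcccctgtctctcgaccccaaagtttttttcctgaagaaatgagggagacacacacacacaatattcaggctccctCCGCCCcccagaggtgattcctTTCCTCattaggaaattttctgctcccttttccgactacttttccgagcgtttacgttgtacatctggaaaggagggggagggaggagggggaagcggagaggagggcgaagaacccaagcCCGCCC
Itgav (chr2:83724147-83724396, plus strand): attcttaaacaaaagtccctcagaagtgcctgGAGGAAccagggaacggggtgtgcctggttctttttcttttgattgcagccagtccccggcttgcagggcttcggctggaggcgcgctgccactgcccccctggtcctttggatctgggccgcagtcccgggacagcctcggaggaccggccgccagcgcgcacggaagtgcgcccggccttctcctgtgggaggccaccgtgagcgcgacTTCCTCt
Itgb5 (chr16:33829415-33829664, plus strand): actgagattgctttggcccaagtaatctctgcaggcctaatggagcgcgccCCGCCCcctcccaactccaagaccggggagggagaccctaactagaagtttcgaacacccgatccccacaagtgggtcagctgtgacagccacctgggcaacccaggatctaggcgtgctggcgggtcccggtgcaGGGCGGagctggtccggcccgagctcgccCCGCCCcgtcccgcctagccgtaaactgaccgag

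The Itga5 window held 1 match to GAGGAA and 2 to GGGCGG, and 55.6% of its bases were G or C. The Itgav window held 2 matches to GAGGAA, beginning 218 and 7 bases before the start, and none to GGGCGG. The Itgb5 window held 3 matches to GGGCGG and none to GAGGAA. Of the 6 windows, 4 held GAGGAA and 5 held GGGCGG, against 23.3% and 32.7% of 32851 mouse promoter windows of the same length. Their share of G or C ran from 49.6% (Itgam) to 68.0% (Itgb1), with Itgav at 64.4% and Itgb5 at 65.2%. The median of all windows was 52.4%, and the part of base composition in these matches was not tested. The windows of the 3 printed genes therefore shared neither motif throughout, and a match to these letters is a description of the sequence only.

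Total counts ran from 20162427 to 31048044 per library, and the 10 integrin genes together took 0.361% to 0.442% of them. Levels are given as CPM, read counts scaled to a common library total. The 10 microglia markers checked, such as Cx3cr1, Csf1r and P2ry12, were all present and summed to 9010 to 9710 CPM with vehicle, 6425 to 7326 with full-length NfL and 8476 to 9088 with coiled-coil NfL. Of these 10 markers, 1 rose and 4 fell with full-length NfL, where 14% of all genes tested rose and 10.9% fell. Marker sums of other cells were far lower: astrocyte markers (8 genes) summed to 26.0 to 56.5 CPM with vehicle and 23.8 to 37.4 with full-length NfL, and oligodendrocyte lineage markers (8 genes) to 123 to 188 and 95.4 to 125. Neuron markers (8 genes) summed to 16.6 to 56.1 CPM with vehicle, 8.33 to 26.9 with full-length NfL and 13.8 to 41.1 with coiled-coil NfL. Of the 6 tested, 2 fell with full-length NfL, and 6 with the replicate block, where 43.8% of all genes passed in either direction. The block also called 6 of 8 astrocyte markers lower, 5 of 7 oligodendrocyte lineage markers lower and 1 higher, and 5 of 10 microglia markers lower and 2 higher. It called 2 of 6 fibroblast and mural, 1 of 3 platelet and 1 of 4 endothelial markers lower, the last with 1 higher. Endothelial markers (6 genes) summed to 46.1 to 101 CPM, 37.6 to 49.5 and 51.0 to 73.0 in the same order, with Cldn5 at 0. Fibroblast and mural markers (8 genes) summed to 6.09 to 10.8 and 2.23 to 7.00, with 6 of 8 under 1 CPM in vehicle. Neutrophil and T cell markers (8 genes), the cells in which Itgal is also well known, summed to at most 1.29 CPM in any library, with S100a9, Cd3e and Cd3g at 0 in all 12 libraries. Platelet markers (7 genes), the cells in which Itgb3 is best known, summed to 29.8 to 84.0 CPM with vehicle and 13.9 to 40.0 with full-length NfL; 6 of 7 were under 1 CPM in vehicle and 1 was at 0 in all 12 libraries. The part of these other cells in the results was not tested, and in bulk RNA fewer cells of a type and less RNA per cell cannot be told apart.

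The order of the levels was read on RPKM, that is, scaled CPM per 1000 bases of exon, the scale on which genes can be compared. Itgam may stand too low in it, since another gene on the same strand shares 3450 of its exon bases. With vehicle, the beta chains stood highest: Itgb1 averaged 186 RPKM (SD 7.66, n = 4), Itgb2 175 (SD 57.5) and Itgb5 134 (SD 13.0), and the libraries of neighbours in that order overlapped. Below a gap came 5 alpha chains, Itgam at 62.1 RPKM, Itga6 at 53.0, Itgav at 52.3, Itga5 at 38.8 and Itgal at 38.0, again with overlap between neighbours. Itga4 followed at 19.0 RPKM and Itgb3 was last at 1.82, each without overlap with the gene above it. The top of the order was thus shared by the beta chains of the leukocyte, matrix and vitronectin receptors, while Itgb3 was far below all other members.

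With full-length NfL the order spread out. Itgb2 at 241 RPKM and Itgb1 at 213 overlapped, and Itgal came next at 139 RPKM, with 2 genes above it in place of 7 with vehicle. Itgb5 at 91.4, Itgam at 75.4 and Itga5 at 54.4 followed, each apart from its neighbours, then Itgav at 33.6 and Itga6 at 32.3, which overlapped. Itga4 stayed next to last at 17.6 RPKM and Itgb3 last at 0.300. With coiled-coil NfL the order lay between the others: Itgb2 at 199 and Itgb1 at 186 overlapped, Itgb5 stood alone at 118, and Itgal at 63.2, Itgam at 61.4, Itga5 at 47.5 and Itga6 and Itgav, both at 45.1, overlapped in a row. Itga4 at 20.3 RPKM and Itgb3 at 0.854 closed it.

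**Figure D1:**
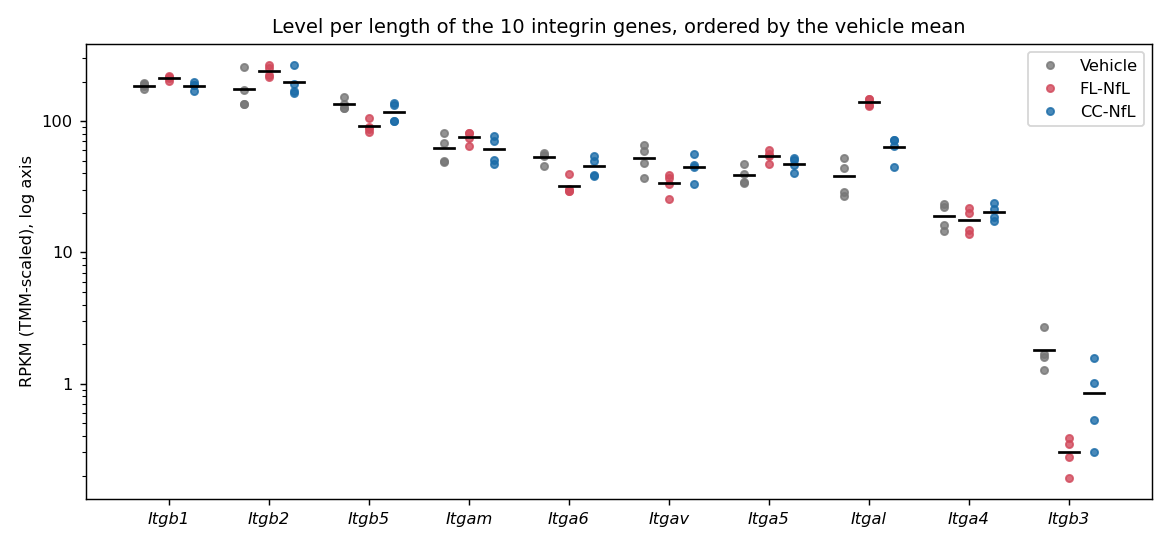
Level of the 10 integrin genes per exon length (RPKM, log axis) in the 3 groups; points are libraries and bars are means of 4. Itgal moved from 38.0 RPKM with vehicle to 139 with full-length NfL, while Itgb3 lay lowest in every group.

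The first comparison was full-length NfL against vehicle. Itgal rose most of the 10 genes, 3.66-fold, and Itga5 rose with it. Itga6, Itgav, Itgb3 and Itgb5 fell, Itgb3 most, 6.07-fold. Itgam, Itgb2, Itgb1 and Itga4 did not pass the test. This made 2 members higher and 4 lower of 10 at an adjusted p under 0.05 (edgeR quasi-likelihood F test, adjusted over all genes tested), where 24.9% of all 14687 genes passed, 14% higher and 10.9% lower (2062 and 1594 genes; 1691 and 2003 with upper-quartile scaling, under which no member changed direction). The median change of the 10 was 0.04 on the log2 scale, against −0.02 over all genes, so the members moved both ways rather than together. The libraries of both groups did not overlap for 5 members (2 higher, 3 lower), against 25.8% of all genes. When batches 2 and 4, whose libraries resembled each other, were summed within each group, 3 members passed, Itgal, Itgb3 and Itga6. The share of all genes that passed with these batches summed is not given here. With the replicate number as a block 5 members were higher and 4 lower, where 43.8% of all genes passed.

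Itgal (ENSMUSG00000030830, GRCm38 chromosome 7, 127296260 to 127335138, plus strand) encodes the alpha chain of LFA-1. Its level in vehicle replicates 1 to 4 was 346, 178, 287 and 188 CPM. With full-length NfL it was 860.5, 965, 868 and 969 CPM, and with coiled-coil NfL 296, 469, 425 and 471. Every full-length library lay above every other library. Within vehicle, batches 1 and 3 were the higher, and within either NfL group they were the lower. The change with full-length NfL was 1.87 ± 0.21 on the log2 scale (SE; 95% interval 1.39 to 2.36), higher in 4 of 4 batches, with an adjusted p of 0.000409 in the edgeR test. By batch the log2 differences were 1.31, 2.44, 1.60 and 2.36, and the gene ranked 47 by p among all genes tested.

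Itgam (ENSMUSG00000030786, chromosome 7, 128062640 to 128118491, plus strand) encodes the alpha chain of complement receptor 3. It read 409, 249.7, 345 and 245 CPM with vehicle, 411, 377, 405 and 324 with full-length NfL, and the coiled-coil libraries gave 389, 236, 354 and 255. The 3 groups overlapped, and batches 1 and 3 were above batches 2 and 4 in each. The change with full-length NfL was 0.28 ± 0.19 (adjusted p = 0.305), with batch differences of 0.01, 0.59, 0.23 and 0.41. With the replicate block it was 0.31 and passed, with an adjusted p of 0.0187. Gm49368 is annotated on the same strand and shares 3450 exon bases with Itgam, so reads of Itgam may have been lost to ambiguity; it had 204 counts over the 12 libraries.

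Itgb2 (ENSMUSG00000000290, chromosome 10, 77530252 to 77565708, plus strand) encodes the beta chain that both share. Its values were 784, 409, 529 and 414 CPM with vehicle, 818, 684, 777 and 658 with full-length NfL, and the coiled-coil libraries gave 821, 502, 587 and 519.8. Vehicle replicate 1 stood as high as the full-length libraries while the other vehicle libraries lay below them. The change with full-length NfL was 0.46 ± 0.21 (95% interval −0.02 to 0.94, adjusted p = 0.130), and by batch 0.06, 0.74, 0.55 and 0.67. It passed with the block (0.51, adjusted p = 0.00197) and without vehicle replicate 1 (0.71, adjusted p = 0.0179).

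**Figure D2:**
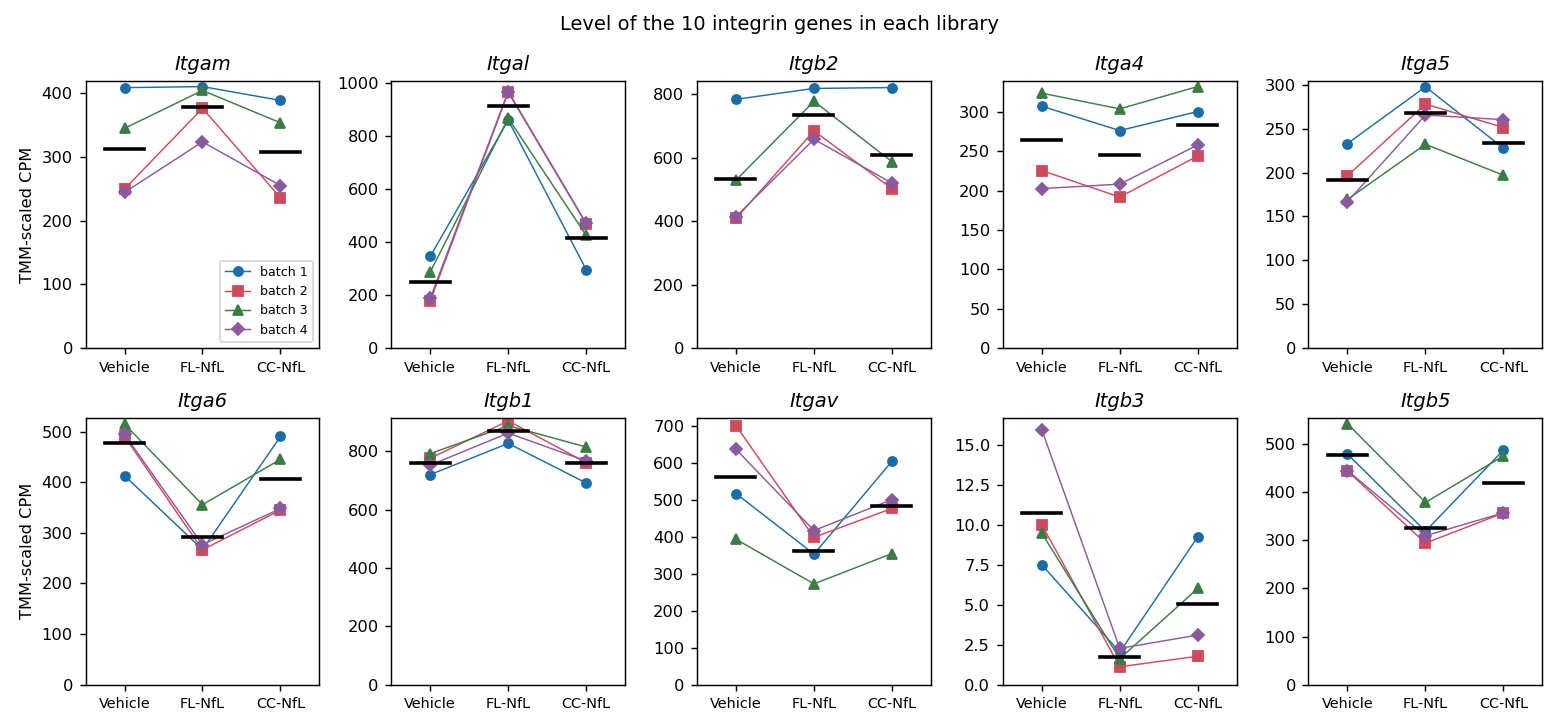
Level of each integrin gene in every library (TMM-scaled CPM, linear axes from 0), with libraries of 1 batch joined across the 3 groups and black bars at the means. Itgal with full-length NfL lies at 860.5 to 969 CPM, above all other libraries, and Itgb3 with full-length NfL at 1.13 to 2.28 CPM.

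Among the matrix receptor chains that pair with Itgb1, 1 rose and 1 fell. Itga5 (ENSMUSG00000000555, chromosome 15, 103344286 to 103366763, minus strand) encodes the alpha chain of the classical fibronectin receptor. It measured 233, 196, 169 and 167 CPM with vehicle, 298, 278, 232 and 266 with full-length NfL, and the coiled-coil libraries gave 228, 251, 197 and 260.3. Full-length libraries were the highest of their batch in all 4 batches, though full-length replicate 3 lay just under vehicle replicate 1. The change with full-length NfL was 0.49 ± 0.12 (adjusted p = 0.0150). Without vehicle replicate 4 it was 0.43, with an adjusted p of 0.0521, and with batches 2 and 4 summed 0.47, with an adjusted p of 0.102.

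Itga6 (ENSMUSG00000027111, chromosome 2, 71745616 to 71858416, plus strand) encodes an alpha chain of laminin receptors. Its level was 413, 490.3, 515 and 494 CPM with vehicle, 267, 266, 356 and 277 with full-length NfL, and the coiled-coil libraries gave 490.2, 345, 445 and 348. All full-length libraries lay below all vehicle libraries, and replicate 3 was the highest of the full-length group. The gene fell by 0.71 ± 0.14 on the log2 scale with full-length NfL (adjusted p = 0.00389), lower in 4 of 4 batches.

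Itga4 (ENSMUSG00000027009, chromosome 2, 79255426 to 79333123, plus strand) encodes the alpha chain of a receptor for VCAM-1 and fibronectin. It read 308, 226, 324 and 203 CPM with vehicle, 277, 192, 304 and 208 with full-length NfL, and the coiled-coil libraries gave 301, 244, 333 and 258. In every group batches 1 and 3 were above batches 2 and 4, and the groups overlapped. The change with full-length NfL was −0.11 ± 0.18 (95% interval −0.53 to 0.30, adjusted p = 0.676). Itgb1 (ENSMUSG00000025809, chromosome 8, 128685654 to 128733200, plus strand) encodes the beta chain with the most alpha partners. It varied least: 721, 777, 793 and 753 CPM with vehicle, 828, 905, 888 and 863 with full-length NfL, and the coiled-coil libraries gave 692, 762, 815 and 767. The full-length libraries stood above all others, by a small step of 0.20 ± 0.07 that did not pass (adjusted p = 0.0666). With the block the adjusted p was 0.0212, and it was 0.0478 without full-length replicate 1 and 0.0394 without coiled-coil replicate 1.

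The 3 chains of the vitronectin receptors all fell with full-length NfL. Itgb3 (ENSMUSG00000020689, chromosome 11, 104608000 to 104670476, plus strand), the beta chain of platelets and osteoclasts, was the scarcest member, with 28 to 369 counts per library. Its values were 7.51, 10.0, 9.48 and 15.9 CPM with vehicle, 2.04, 1.13, 1.63 and 2.28 with full-length NfL, and the coiled-coil libraries gave 9.24, 1.79, 6.02 and 3.11. Full-length libraries lay below all vehicle libraries, while coiled-coil libraries 1 and 3 lay near vehicle and 2 and 4 near full-length NfL. The gene fell by 2.60 ± 0.46 on the log2 scale (95% interval −3.63 to −1.57) with an adjusted p of 0.00269. By batch the log2 differences were −1.88, −3.15, −2.54 and −2.81.

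Itgb5 (ENSMUSG00000022817, chromosome 16, 33829665 to 33949338, plus strand) encodes another beta partner of Itgav, the chain that binds vitronectin. It read 478, 443, 541 and 444 CPM with vehicle, 318, 294, 378 and 309 with full-length NfL, and the coiled-coil libraries gave 487, 356, 474 and 357. All full-length libraries lay below all vehicle libraries. It fell by 0.55 ± 0.13 on the log2 scale (adjusted p = 0.00891), and the batches differed little, at −0.59, −0.59, −0.52 and −0.52. With batches 2 and 4 summed the change was −0.54, with an adjusted p of 0.0528.

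Itgav (ENSMUSG00000027087, chromosome 2, 83724397 to 83806916, plus strand) encodes the alpha chain of these receptors, which also activate latent TGF-beta. Its level was 517, 701, 394 and 637 CPM with vehicle, 354, 399, 273 and 417 with full-length NfL, and the coiled-coil libraries gave 605, 477, 355 and 501. Batch 3 was lowest in each group, and vehicle replicate 3 lay within the range of the full-length libraries. It fell by 0.64 ± 0.20 on the log2 scale (95% interval −1.10 to −0.19, adjusted p = 0.0364), lower in 4 of 4 batches, and with the block the adjusted p was 0.000898. This call was lost in 9 of the 12 fits that left out 1 library, those without 1 of vehicle libraries 1, 2 and 4, of all full-length libraries, or of coiled-coil libraries 2 and 4. Over all 12 fits the change was −0.78 to −0.51, with adjusted p-values of 0.0119 to 0.117. With batches 2 and 4 summed it was −0.61, with an adjusted p of 0.169. Exons of Itgav and Itga4 overlap genes on the opposite strand (Gm13684 over 634 bases and Cerkl over 1124), which had 104 and 50 counts over the 12 libraries; whether the counting used strand is not given in the sources used here.

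**Figure D3:**
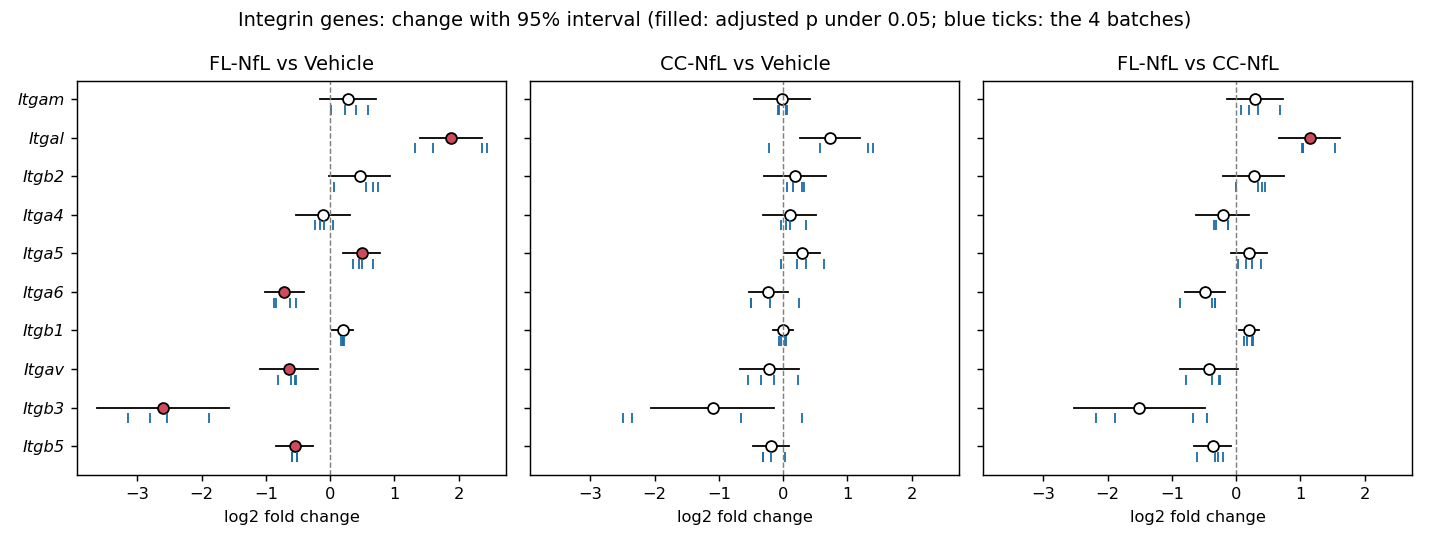
Log2 fold change of each integrin gene in the 3 comparisons, with bars for the 95% interval of the edgeR fit filled marks where the adjusted p was under 0.05 and blue ticks for the 4 batches. With full-length NfL against vehicle 6 members were called (Itgal and Itga5 higher), with coiled-coil NfL against vehicle none, and between the forms Itgal alone.

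The second comparison was coiled-coil NfL against vehicle. None of the 10 integrin genes passed, nor did any of the 14687 genes (0% called in the edgeR test, smallest adjusted p 0.414). At an unadjusted p under 0.05 there were 3 members, Itgal, Itga5 and Itgb3, and 1082 genes. DESeq2's Wald test called 24 genes higher, 9 lower and none of the 9 members it gave an adjusted p. The replicate block called 2 genes (0.0136%) and no member. No member had groups without overlap, against 2.72% of all genes.

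Itgal with coiled-coil NfL differed from vehicle by 0.73 ± 0.21 on the log2 scale (95% interval 0.26 to 1.20, adjusted p = 0.621). The batches differed in direction: −0.23 in batch 1 and 1.40, 0.57 and 1.32 in batches 2, 3 and 4. Itgb3 gave −1.10 ± 0.42 (95% interval −2.06 to −0.14, adjusted p = 0.668), with 0.30 in batch 1 and −2.49, −0.66 and −2.36 in the others. For both genes the vehicle and coiled-coil libraries of batch 1 were close, and those of batches 2 and 4 far apart. Itga5 stood at 0.29 ± 0.12 (adjusted p = 0.674). Itgam at −0.02 ± 0.19 (95% interval −0.45 to 0.42) and Itgb1 at 0.00 ± 0.07 (95% interval −0.17 to 0.16) had estimates near 0, and the interval of Itgam leaves room for changes of the size seen for Itga5. The other 5 members lay between −0.23 (Itga6) and 0.19 (Itgb2), with adjusted p-values of 0.741 to 0.918. Itgb2 was higher in 4 of 4 batches, the only member with 1 direction in all batches.

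The last comparison set full-length against coiled-coil NfL at the same dose and time; the coiled-coil form is named for the rod part of the protein. Itgal was higher with full-length NfL and was the 1 member of 10 that passed, where 2.72% of all genes passed, 1.38% higher and 1.34% lower. Its difference was 1.14 ± 0.21 on the log2 scale (95% interval 0.67 to 1.61, adjusted p = 0.0218), or 2.20-fold, at 1.54, 1.04, 1.03 and 1.04 in the 4 batches. This call ended without full-length replicate 2 (1.12, adjusted p = 0.0706) or 4 (1.12, 0.0663), without coiled-coil replicate 1 (1.02, 0.0530) or 3 (1.16, 0.0603), and with batches 2 and 4 summed (1.19, 0.154).

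The other members did not pass between the forms. Itga6 differed by −0.48 ± 0.14 (adjusted p = 0.0762), Itgb3 by −1.50 ± 0.45 (0.0866), Itgb5 by −0.37 ± 0.13 (0.13) and Itgb1 by 0.20 ± 0.07 (0.138). Itgav, Itga5, Itgam, Itgb2 and Itga4 had adjusted p-values of 0.245 to 0.541. In all 4 batches 4 members were higher and 5 lower with full-length NfL, a count for which no share over all genes was taken. The libraries of both groups did not overlap for Itgal and Itgb1, against 12.5% of all genes. The block moved the count most here: 8 members passed with it, where 19.1% of all genes did. Itgal (adjusted p = 0.00577), Itgam (0.33, adjusted p = 0.0334) and Itgb1 (0.20, 0.0396) were higher. Itga6 (−0.48, 0.0158), Itgb5 (−0.36, 0.00928), Itgav (−0.43, 0.0200), Itgb3 (−1.45, 0.0338) and Itga4 (−0.23, 0.0448) were lower. The 3 comparisons share their groups, so they are not independent of each other.

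Ratios of chains that compete for a partner, taken per exon length within each library, cancel whatever scales both genes alike. Itgal stood to Itgam at 0.545 to 0.647 (median 0.613) with vehicle, 1.60 to 2.29 (1.80) with full-length NfL and 0.582 to 1.52 (1.17) with coiled-coil NfL. Thus counts of Itgam per length exceeded those of Itgal in all vehicle libraries and the order was turned in all full-length libraries. Reads of Itgam lost to Gm49368, which shares 3450 of its exon bases, would make this ratio too high. Whether the ratio truly crossed 1 is therefore not known. A loss alike in all libraries would leave its change between groups as it is. The log2 ratio was 1.62 higher with full-length NfL than with vehicle (batches 1.31, 1.85, 1.37 and 1.96; p = 0.029 in the two-sided exact permutation test, the smallest that 4 against 4 allows). After adjustment over the 9 ratio tests this exact p was 0.0857, so it did not pass. The difference between the forms was 0.84, with the same exact p and adjusted p, and that of coiled-coil NfL from vehicle 0.78 (exact p = 0.114, adjusted 0.147).

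Itgb3 stood to Itgb5, the other beta partner of Itgav, at 0.00945 to 0.0216 with vehicle, 0.00231 to 0.00443 with full-length NfL and 0.00302 to 0.0114 with coiled-coil NfL. Itgb5 was thus by far the more abundant in every library, and the ratio was lower in all full-length than in all vehicle libraries. The log2 difference was −2.04 (exact permutation p = 0.029, adjusted 0.0857); it was −1.10 for coiled-coil NfL against vehicle (exact p = 0.0857, adjusted 0.147). Itga4 stood to Itga5 at 0.406 to 0.675, 0.244 to 0.462 and 0.343 to 0.596 in the same order. That ratio was lower with full-length NfL than with vehicle in 4 of 4 batches, by −0.60 on the log2 scale, with overlap between the groups (exact permutation p = 0.0857, adjusted 0.147). None of the 9 differences passed after adjustment. As the exact p cannot be under 0.029, a difference could pass only if most of the 9 reached that value. The adjusted test could thus hardly pass with 4 libraries per group, and no conclusion is drawn from it.

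**Figure D4:**
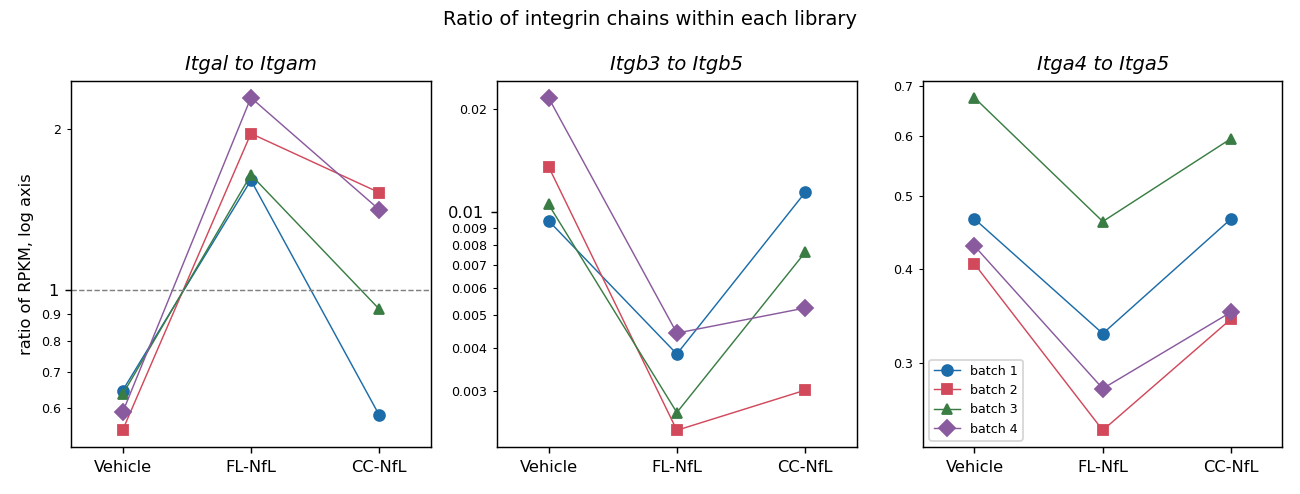
Ratio of chains that share a partner, per exon length, in each library (log axis), with libraries of 1 batch joined across the 3 groups. Itgal to Itgam lies at 0.545 to 0.647 with vehicle and at 1.60 to 2.29 with full-length NfL. As counted, these are on either side of 1, though lost reads of Itgam would make the ratio too high.

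The remaining integrin genes of the mouse were mostly silent. Of 17 others in the table, 8 were tested and none passed the edgeR test in any comparison. Of all genes tested, 24.9% passed for full-length NfL against vehicle, 0% for coiled-coil NfL against vehicle and 2.72% between the forms. At an unadjusted p under 0.05 there were 2 for full-length NfL against vehicle and 0 in either other comparison. Over all 14687 genes there were 5653 for full-length and 1082 for coiled-coil NfL against vehicle, and 3175 between the forms. DESeq2 called 1 of 8, Itga9, for full-length NfL against vehicle. It called 0 of the 2 it gave an adjusted p with coiled-coil NfL, and 0 of 5 between the forms. Itga9 is an alpha chain that pairs with Itgb1. Itga9 averaged 70.8 CPM (SD 18.4) with vehicle, 123 (SD 35.5) with full-length NfL and 83.4 (SD 29.8) with coiled-coil NfL, a change of 0.80 ± 0.30 for full-length NfL against vehicle (adjusted p = 0.0707), with no overlap. It passed with only the groups compared in the fit (adjusted p = 0.0482), without coiled-coil replicate 1 (0.0270) and with the replicate block (0.000859). The block also called 3 others, all lower, where 43.8% of all genes passed. Itgax, the CD11c chain that also pairs with Itgb2, averaged 31.2, 18.2 and 30.7 CPM with SDs of 19.7, 17.1 and 33.4. Without the block Itgax did not pass for full-length NfL against vehicle (adjusted p = 0.463). With the block it was among the 3 genes called lower there (adjusted p = 0.00123). The block also called Itgax lower with full-length than with coiled-coil NfL (adjusted p = 0.0252), where 19.1% of all genes passed. Against coiled-coil NfL, Itga9 differed by 0.56 ± 0.30 (adjusted p = 0.303; 0.0125 with the block). In the comparison of coiled-coil NfL with vehicle the smallest p belonged to Itga10, at under 1 CPM (0.41 ± 0.45, adjusted p = 0.865).

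Genes that act on the inner side of integrins were called in both directions with full-length NfL. Of 37 genes for activation and the adhesion complex, 35 were tested, 10 were higher and 2 lower, with a median change of 0.14, against 24.9% called and a median of −0.02 over all genes. Ptk2, focal adhesion kinase, rose from 22.4 to 41.3 CPM (0.88 ± 0.16, adjusted p = 0.00296). Rap1b, a small GTPase that switches integrins on through talin, rose by 0.81 ± 0.15 (adjusted p = 0.00382), though reads of its close relative Rap1a may be hard to tell apart. The main talin of blood cells, Tln1, rose by 0.44 ± 0.09 (adjusted p = 0.00602) and kindlin-3, Fermt3, by 0.59 ± 0.12 (adjusted p = 0.00563). Both genes were added after their values were seen. The other kindlin gene tested, Fermt2, did not pass without the block and was lower with it (−0.77, adjusted p = 0.00245). The second talin gene, Tln2, fell by 0.89 ± 0.20 (adjusted p = 0.00783), from 73.9 to 39.9 CPM, with a batch 1 difference of only −0.05. Parvb, an adaptor of the integrin-linked kinase complex, fell by 0.53 ± 0.14 (adjusted p = 0.0193); on leaving out vehicle 1, full-length 2 or full-length 4 its adjusted p was 0.0564 to 0.0627. The block gave 15 higher and 6 lower, where 43.8% of all genes passed. Batches 2 and 4 summed gave 3 higher and none lower, with Tln2 (adjusted p = 0.0780) and Parvb (0.108) no longer called. The share of all genes with these batches summed is not given here.

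No adhesion complex gene was called with coiled-coil NfL by edgeR (0 of 35) or DESeq2 (0 of the 29 it gave an adjusted p). In edgeR 2 had an unadjusted p under 0.05, against 1082 of all 14687 genes. Fyb, an adaptor on the path to integrin activation, had the smallest p (0.34 ± 0.11, adjusted p = 0.646). Between the NfL forms edgeR called 0 of the 35, where 2.72% of all genes passed. At an unadjusted p under 0.05 there were 12, and 3175 of all 14687 genes. DESeq2 called 3 of the 33 it gave an adjusted p, and its share over all genes there is not given here. With the block 10 were higher and 4 lower there, where 19.1% of all genes passed.

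Genes of integrin ligands were called in both directions. Of 31 genes 24 were tested, and with full-length NfL 2 were higher and 2 lower, where 24.9% of all genes passed. Their median was −0.72, against −0.02 over all genes. C3, the complement protein whose fragment iC3b is bound by the Itgam and Itgb2 pair, rose from 658 to 2418 CPM (1.88 ± 0.42, adjusted p = 0.00796), by 0.80 in batch 1 and 3.04, 1.55 and 3.01 in the others. With batches 2 and 4 summed its change was 1.63, with an adjusted p of 0.0590. Adam15, a membrane protease with an integrin-binding domain, rose by 0.74 ± 0.09 (adjusted p = 0.000551). Spp1, osteopontin, a secreted ligand of Itgav receptors, fell from 12443 to 4020 CPM (−1.63 ± 0.28, adjusted p = 0.00247). Col4a1, a basement membrane collagen, fell by 1.53 ± 0.29 (adjusted p = 0.00358) at a level of 1.80 to 0.622 CPM. Fn1, fibronectin, averaged 608 CPM with an SD of 532 with vehicle and 220 with an SD of 204 with full-length NfL (−1.47 ± 0.87, adjusted p = 0.237). With the replicate block the change of Fn1 was −1.56 ± 0.19 and passed (adjusted p = 0.000143). The block gave 5 higher and 9 lower, where 43.8% of all genes passed.

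With coiled-coil NfL 0 of 24 ligand genes passed the edgeR test, with 2 at an unadjusted p under 0.05, against 1082 of all 14687 genes. C3 had the smallest p, with a difference of 1.65 ± 0.41 (adjusted p = 0.621) and batch values of 0.05, 3.17, 1.11 and 2.88. DESeq2's Wald test called C3 alone (adjusted p = 0.0487), of the 11 ligand genes it gave an adjusted p. The block called 1 ligand gene lower, Thbs1 (−0.53, adjusted p = 0.0227), where 0.0136% of all genes passed. The fit without coiled-coil replicate 1 also called 1 ligand gene lower, with no share over all genes given here. Between the forms Adam15 was higher with full-length NfL (0.50 ± 0.09, adjusted p = 0.0218) and Spp1 lower (−1.30 ± 0.28, adjusted p = 0.0371), 1 in each direction. Of all genes 2.72% passed there. Adam15 lost its call on leaving out full-length 2, full-length 4, coiled-coil 1 or coiled-coil 3 (adjusted p 0.0598 to 0.0706). Spp1 lost its call on leaving out vehicle 2, full-length 1, 2 or 4, or coiled-coil 3 (adjusted p 0.0507 to 0.119), and with only the groups compared in the fit (0.0746). With batches 2 and 4 summed neither passed (0.154 and 0.194), and the block gave 1 higher and 7 lower, where 19.1% of all genes passed.

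Membrane partners hold integrins in clusters or travel with them. All 16 were tested, and with full-length NfL 2 were higher and 4 lower, where 14% and 10.9% of all genes were; their median was −0.14, against −0.02. The counts were 1 and 2 without the low-count filter or with only the groups compared in the fit, and 0 and 1 with batches 2 and 4 summed. Shares of all genes under these settings are not given here. The tetraspanin Cd9 fell from 362 to 97.1 CPM (−1.90 ± 0.34, adjusted p = 0.00288), by 1.47 in batch 1 to 2.23 in batch 4. Cd63, a tetraspanin of late endosomes, fell by 0.49 ± 0.12 (adjusted p = 0.0115), and the hyaluronan receptor Cd44 by 0.50 ± 0.16 (adjusted p = 0.0435). Slc3a2 (CD98), which binds beta tails, rose by 0.54 ± 0.15 (adjusted p = 0.0231), and Bsg (basigin) by 0.24 ± 0.07 (adjusted p = 0.0335). Of these, Cd9 alone was still called with batches 2 and 4 summed. Fits without single libraries ended the calls of Slc3a2 (without vehicle 1 or 4 or full-length 2 or 4; up to 0.0625), Bsg (without vehicle 1, 2 or 4 or full-length 2 or 3; up to 0.0785) and Cd44 (without vehicle 1, 2 or 4, full-length 2 or 4 or coiled-coil 3 or 4; up to 0.122). Calls of Bsg and Cd44 also ended without the low-count filter (adjusted p = 0.0598 and 0.0523) and with only the groups compared in the fit (0.0568 and 0.0523). The block gave 4 higher and 7 lower, where 43.8% of all genes passed.

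In the other comparisons edgeR called 0 of 16 partners, where 0% of all genes passed with coiled-coil NfL and 2.72% between the forms. At an unadjusted p under 0.05 there was 1 for coiled-coil NfL against vehicle and 5 between the forms. Of all 14687 genes there were 1082 and 3175. DESeq2 called 0 and 2 of the 14 partners it gave an adjusted p. Its share over all genes between the forms is not given here. Bsg had the smallest p with coiled-coil NfL (0.20 ± 0.07, adjusted p = 0.662). Between the forms Cd9 came nearest, at −1.26 ± 0.33 (adjusted p = 0.0624), lower in 4 of 4 batches. Without full-length replicate 1 its adjusted p was 0.0372, without coiled-coil replicate 2 it was 0.0472, and with the block 0.00199. With the block 2 partners were higher and 6 lower there, where 19.1% of all genes passed.

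**Figure D5:**
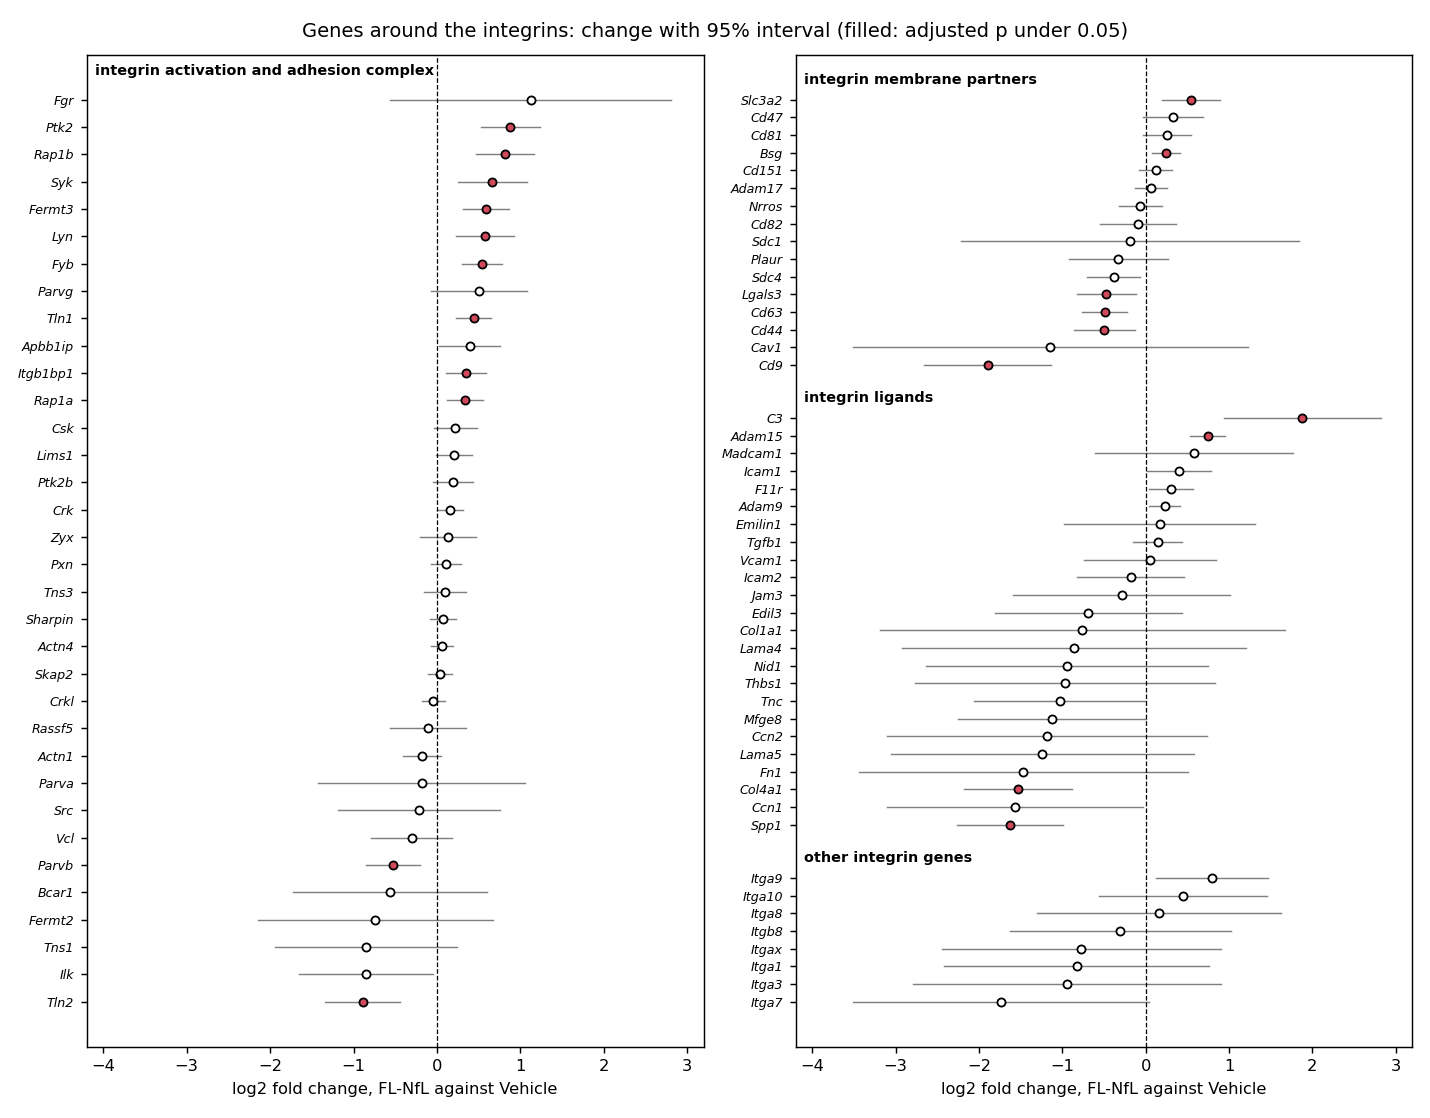
Log2 fold change of full-length NfL against vehicle for the tested genes of 4 lists (other integrins, adhesion complex, ligands, membrane partners; 1 adhesion complex gene is not drawn), with bars for the 95% interval and filled marks where the adjusted p was under 0.05. With full-length NfL against vehicle 10 of 35 adhesion complex genes were called higher and 2 lower, and 2 of 24 ligand genes higher and 2 lower.

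The genes whose levels ran most like those of 3 members over the 12 libraries were found by Pearson's r of log2 (CPM + 0.5), as a description. Itgam ran most like Dap, Ggta1 and Ccdc93 (r = 0.954, 0.954 and 0.942). For Itgb2 they were Procr, Alas1 and Pon2 (0.945, 0.940 and 0.936), and for Itgav Lrp1, Cacna1a and Cpe (0.974, 0.974 and 0.966). The 12 points share batches and treatment groups, and Itgam and Itgb2 were above in batches 1 and 3 in every group, so these values also hold what batches have in common.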

How the data were processed

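Polyadenylated RNA of 12 libraries was sequenced with a stranded kit as single reads of 50 bases, per the labels' protocols. Reads were aligned to GRCm38 with GSNAP, per the submitters' processing notes; what counted the reads, with which annotation and strand setting, is not given in the sources used here. In the deposited table, the authors gave raw read counts per Ensembl gene, with no normalization. Symbols, coordinates and exon lengths came from GENCODE M21 (99.72% of identifiers matched; the others held 0.0065% of counts).

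A filter on low counts (filterByExpr of edgeR 4.0.16, in R 4.3.3) removed 37949 genes and kept 14687, which held 99.9% of counts. TMM factors scaled the libraries. One quasi-likelihood model held all 12 libraries (9 residual degrees of freedom), with two-sided F tests, Benjamini-Hochberg adjustment over all tested genes and a threshold of 0.05. SEs came from the F statistic and 95% intervals from the t quantile. CPM and RPKM are TMM-scaled, and values per library follow replicates 1 to 4. The script was tested on simulated counts. Chain ratios had exact permutation tests over 4 against 4 libraries.

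The labels give each replicate number its own batch, so the numbers pair the samples: libraries of the same number correlated at 0.31 to 0.77 across genes (12 of 12 pairs over 0.1) and others at −0.46 to 0.48 (7 of 36). The fit with the number as a block has 6 residual degrees of freedom. Squared differences between libraries of batches 2 and 4 in a group, per gene and relative to counting noise, had means of 12.5 to 15.6 and medians of 1.66 to 2.45, against 28.2 to 146 and 4.06 to 9.02 for other pairs; counting noise alone gives a mean of 1 and a median of 0.455. The typical gene thus differed little between these libraries but more than counting allows, so all were kept as separate samples, and summing both was added as an alternative after the data were seen. Other alternatives were DESeq2 1.42.0, its size factors, upper-quartile scaling, no filter, fits of only the groups compared, and leaving out each library. The members and lists were chosen with earlier results of these data known. Named genes were all 10 members and the 3 genes most like Itgam, Itgb2 and Itgav. Each list gave up to 3 called genes in each direction with the smallest p (or the 1 with the smallest p). Fn1, Itgax, Tln1, Fermt3, Fermt2 and Thbs1 were added outside this rule, after their values were seen. A gene that the rule names is counted in its list but not reported here.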

Additional observations from a re-analysis of the deposited data

Results flagged for a closer look

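In the full-length NfL group, Itga6 in replicate 3 stood apart from the other 3 libraries, at 355.5 CPM against 266 to 277. It was 1 of 39 groups of 4 libraries checked (10 genes and 3 ratios in 3 groups) for an end value far from its nearest neighbour relative to the range, and chance gives about 1 in 20. Leaving out each library in turn kept the fall of Itga6 against vehicle called, at −0.82 to −0.67 on the log2 scale.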

How the results depend on the processing

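The number of integrin genes called for full-length NfL against vehicle was 6, ran from 4 to 7 when single libraries were left out, and was 3 with batches 2 and 4 summed. Between the NfL forms it was 1, with 8 under the replicate block, 5 with DESeq2's Wald test, 0 with batches 2 and 4 summed and 0 to 2 when single libraries were left out. For coiled-coil NfL against vehicle it was 0 in all fits run. Shares of all genes are not given here for fits without single libraries, batches 2 and 4 summed, or DESeq2 between the forms. The block changed the calls given beside the results and no other member's call. Among members, directions turned only for estimates near 0 when single libraries were left out: Itga4 for full-length NfL against vehicle (−0.23 to 0.00093) and, for coiled-coil NfL against vehicle, Itga4 (−0.0087 to 0.21), Itgam (−0.15 to 0.14) and Itgb1 (−0.039 to 0.032). Itgb1 for full-length NfL against vehicle was also called by DESeq2's Wald test (0.19, adjusted p = 0.0124). Upper-quartile scaling moved the median of all genes for full-length NfL against vehicle from −0.02 to −0.08. For the chain ratios, paired sign flips within batches cannot pass with 4 batches. Depth limits Itgb3, which had 28 counts in its lowest library. The causes of these differences were not tested.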
